A study of Mus musculus with 13 samples.

Results

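Chromatin accessibility was compared between microglia of mice that received lipopolysaccharide (LPS) for the second time and microglia of mice that received it for the first time, with the microglia left in place in between. The comparison holds 4 of the 13 libraries of the series and all 38620 deposited peaks, of which 37516 had enough counts to be tested. Both groups were male C57BL/6J mice, aged 10 weeks at the first intraperitoneal injection and 15 weeks at collection. The first injection was phosphate-buffered saline in the group PL and LPS at 1 mg/kg in the group LL. From 1 week later both groups were gavaged for 5 days with the vehicle 2-hydroxypropyl-beta-cyclodextrin, the carrier of the CSF1 receptor inhibitor BLZ945 that other groups received. At 5 weeks after the first injection both groups were given LPS at 1 mg/kg and brains were taken 3 hours later. Each group had 2 libraries, and every library pooled 2 animals at 40000 sorted cells per animal, so the spread between libraries is a spread between pools. Used beside them were PP (2 libraries, saline at both injections, vehicle) and the arm depleted with BLZ945 at 169 mg/kg per day and then repopulated, which had a first LPS group PBL (3 libraries) and a second LPS group LBL (2 libraries).

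Microglia are the resident macrophages of the brain. LPS is sensed by Toll-like receptor 4, which acts through MyD88 and TRIF on NF-kB, AP-1 and interferon regulatory factors and within hours opens enhancers of cytokine, chemokine and feedback genes. A macrophage that has met LPS before can respond more weakly or more strongly to the next dose, states called tolerance and training, and altered enhancer accessibility is one of the marks by which such a history can be held. ATAC-seq reads this out by letting a transposase cut accessible DNA, and the number of fragments in a peak is taken as its accessibility. The comparison of LL with PL asks which regions carry the history of the earlier injection 3 hours into a new response.

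The libraries of the comparison held 1692751 and 1861139 rounded counts in peaks for PL and 2013926 and 2494980 for LL. The PL libraries were sorted on the instrument labelled Astrios and the LL libraries on the one labelled XDP, on different isolation days, so injection history, sorter and day cannot be told apart between LL and PL. PP was also sorted on Astrios and on another day than LL, so the same holds wherever LL levels are set beside those of saline mice. PL was the group whose libraries came from separate days: PL 1_2 shared its day with PBP, the saline group of the depleted arm, and PL 3_4 with PP. The model has no term for the day. The pair of PL libraries was less alike than any other pair: its chi-square per degree of freedom over peaks was 1.84, against 0.978 to 1.15 in the other groups and 1.03 for LL. In PL 3_4 promoter peaks took 53.2% of the counts, below the 55.5% to 60.1% of the 12 other libraries. PL 3_4 lay at 41.4 on the first principal component, which held 27.8% of the variance, against 10.7 for PL 1_2 and 19.4 and 19.8 for the LL libraries. The LBL pair, at 0.978, differed by no more than counting noise if each count is an independent event. Of 12 defining microglia markers 11 had tested peaks, and their summed signal was 1600 and 1700 CPM (counts scaled to a common library size) in PL and 1800 and 1880 CPM in LL. The labelled cell type was thus present in both groups by its markers.

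Few peaks differed between LL and PL beyond the spread between pools as estimated over all 6 groups. Of 37516 peaks 24 (0.064%) were called at an adjusted p under 0.05 by edgeR's quasi-likelihood test with Benjamini-Hochberg adjustment, 19 lower in LL (0.0506%) and 5 higher (0.0133%). The lower peaks lay at or near Tmbim1, Slc11a1, Il4i1, the microRNA gene Mir146 and, further away, the miR-155 host gene Mir155hg. The higher peaks lay at Aatk and Sh3bp1 and near Zbtb16 and Il12a. The folds ran from 1.59 to 4.6 among the lower peaks and from 1.68 to 2.85 among the higher ones, and at all 24 the LL libraries did not overlap the PL libraries, which was so at 33.8% of all tested peaks. Over all tested peaks the median log2 fold change was 0.01, 90% of peaks lay between -0.57 and 0.51, and the median SE was 0.26. At an unadjusted p under 0.05 there were 1398 peaks higher (3.73%) and 1535 lower (4.09%). The call list was not firm: DESeq2 called 0 peaks on the same counts, with 662 peaks at an unadjusted p under 0.05 and a smallest adjusted p of 0.189, and limma-trend called 4. The counts behind the calls were small, from 3 to 201 per library at the lower peaks and from 9 to 165 at the higher ones.

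**Figure D1:**
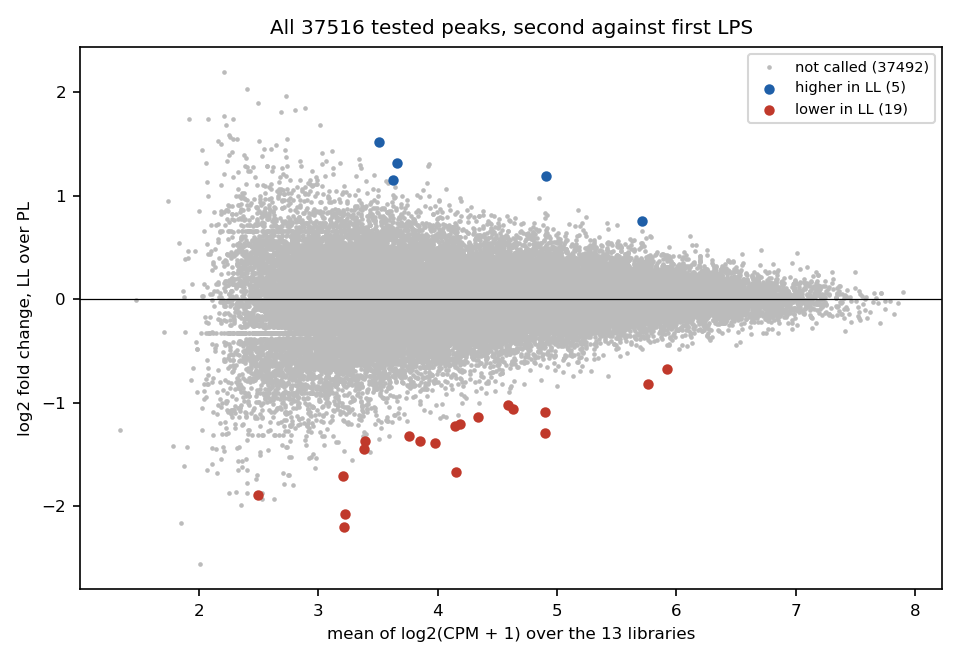
Each point is 1 of the 37516 tested peaks, with the mean of log2(CPM + 1) over the 13 libraries on the x axis and the log2 fold change of LL over PL on the y axis. Coloured points are the 5 peaks called higher and the 19 called lower in LL; the called peaks lie at the edge of a cloud that narrows with rising signal.

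Of the 19 peaks that fell, 2 had a microRNA gene of the LPS response as their nearest gene. miR-146a and miR-155 are both induced by Toll-like receptor ligands; miR-146a targets Irak1 and Traf6 and limits the response, and miR-155 promotes it. Their mature sequences from RefSeq (GRCm38.p6) are shown because called peaks were nearest to their genes, with the seed, bases 2 to 8, in capitals. The seeds of the 2 miRNAs are different.
mmu-miR-146a-5p: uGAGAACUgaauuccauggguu
mmu-miR-155-5p: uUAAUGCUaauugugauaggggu

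The Mir146 peak, at chr11:43385022-43385664 (GRCm38, 643 bp, in an exon by the deposited annotation), starts 10.6 kb upstream of the miR-146a sequences. It measured 49.8 and 59.6 CPM in PL 1_2 and PL 3_4 and 29.9 and 32.2 CPM in LL 1_2 and LL 3_4. Both LL libraries were also below the 54.7 and 65.9 CPM of PP. The log2 fold change of LL over PL was -0.82 (SE 0.18, edgeR adjusted p = 0.0269). Of the 5 peaks assigned to Mir146, 4 had a negative log2 fold change and this was the one called.

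The peak nearest to Mir155hg lay at chr16:84621258-84621723, a distal intergenic region 81444 bp upstream of its start site and 92.4 kb from the mature miR-155-5p. It measured 24.9 and 42.1 CPM in PL and 14.5 and 16.1 CPM in LL, against 10.5 and 18.0 CPM in PP. After the first LPS the region stood above the saline libraries, and after the second it lay within their range. The log2 fold change of LL over PL was -1.14 (SE 0.24, edgeR adjusted p = 0.0179). With PL 3_4 left out it was -0.70, with an adjusted p of 0.475. All 4 peaks assigned to Mir155hg had a negative log2 fold change, from -1.14 to -0.29.

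The smallest p belonged to a peak at Tmbim1, which encodes a membrane protein of the BAX inhibitor motif family found on lysosomes. The peak, at chr1:74295160-74296099 (940 bp), is a promoter peak by the deposited annotation and measured 39.7 and 45.3 CPM in PL against 18.0 and 16.9 CPM in LL. The PP libraries stood between, at 31.6 and 24.0 CPM. The log2 fold change was -1.29 (SE 0.22, 95% interval -1.71 to -0.87, edgeR adjusted p = 0.000531). Slc11a1, the gene of a divalent metal transporter of phagosome membranes, starts near the same stretch of chromosome 1, and its called promoter peak at chr1:74381455-74382023 is 86.3 kb away from the Tmbim1 peak. It measured 23.7 and 26.6 CPM in PL, 11.0 and 10.9 CPM in LL and 12.6 and 16 CPM in PP, a log2 fold change of -1.20 (SE 0.26, adjusted p = 0.0243). At both sites the LL libraries lay below the saline libraries. Neither called peak overlaps the RefSeq promoter window of its gene. The peak that does so at Tmbim1, by 27 bases (chr1:74303649-74304313), had a log2 fold change of 0.04, and the one at Slc11a1 (chr1:74374994-74375759) had 0.14. The stretch did not move as a whole: of 9 tested peaks from one to the other, these included, 4 had a negative log2 fold change. The 2 called peaks were the lower ones with an unadjusted p under 0.05, and 1 peak nearest to Slc11a1 (chr1:74369878-74370231) was higher at that level (log2 fold change 0.60, edgeR adjusted p = 0.525).

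The other called promoter peak that fell lay 492 bp upstream of Il4i1, the gene of a secreted L-amino acid oxidase made by activated myeloid cells, at chr7:44835343-44835795. Its values were 19.0 and 21.3 CPM in PL, 6.49 and 8.85 CPM in LL and 12.6 and 16 CPM in PP. LL over PL gave a log2 fold change of -1.37 (SE 0.29, edgeR adjusted p = 0.0227).

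In introns, the called peaks that fell lay in Specc1l, 3425401B19Rik, Tspan18, Myl12b, Hc and N4bp2l2. The peak in intron 1 of 3425401B19Rik (chr14:32683012-32683836) measured 47.4 and 39.4 CPM in PL, 18.0 and 22.1 CPM in LL and 27.3 and 22 CPM in PP. It fell by 1.09 on the log2 scale (SE 0.21, edgeR adjusted p = 0.0044). The peak in intron 1 of Specc1l, which encodes a protein that links actin and microtubules (chr10:75222314-75223175), measured 19.6 and 29.8 CPM in PL and 5.99 and 9.25 CPM in LL, with 18.9 and 12.0 CPM in PP. It fell by 1.67 (SE 0.29, adjusted p = 0.000562). In intron 5 of Tspan18, a tetraspanin gene (chr2:93214266-93214541), the signal was 13.6 and 9.59 CPM in PL and 2.00 and 3.22 CPM in LL; the PP libraries, at 12.6 and 11.0 CPM, were close to PL. The fall was 2.08 (SE 0.43, adjusted p = 0.0147) and rested on 4 and 8 counts in LL. At the intronic peaks in Myl12b, a myosin light chain gene, in Hc, the gene of complement C5, and in N4bp2l2 the log2 fold changes were -1.44, -1.89 and -1.37, and the lowest LL count, 3, was at Hc. The Hc value was -3.11 without LL 1_2 and -1.12 without LL 3_4, and that of Myl12b -2.07 and -0.93.

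Between genes, the largest fold of the called list was at a peak 13988 bp downstream of the start of Crlf3, a cytokine receptor-like factor (chr11:80043416-80043911). It measured 14.2 and 14.9 CPM in PL and 2.50 and 3.62 CPM in LL, with 6.31 and 13.0 CPM in PP, a log2 fold change of -2.20 (SE 0.39, edgeR adjusted p = 0.0012). It rested on 5 and 9 counts in LL. A region of higher signal, at chr12:25213693-25214591 and more than 50 kb from any start site, measured 81.8 and 107 CPM in PL, 58.4 and 60.4 CPM in LL and 42.1 and 51.9 CPM in PP. Its LL libraries lay between the saline and the first LPS libraries, and its log2 fold change was -0.67 (SE 0.15, adjusted p = 0.0237). At chr12:86819090-86819595, 65203 bp downstream of the start of Irf2bpl, the values were 26.7 and 47.9 CPM in PL and 15.5 and 20.1 CPM in LL (log2 fold change -1.06, SE 0.23, adjusted p = 0.0217). The PP libraries there were at 18.9 and 14 CPM, which overlaps LL. Without PL 3_4 the values at these last 2 regions were -0.47 and -0.57, and neither was called.

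Other distal peaks that fell were chr1:77280490-77281331, nearest to Epha4 (log2 fold change -1.39), chr8:9008081-9008843 (-1.23), and peaks near Tmsb10, an actin monomer binding protein gene (-1.33) and Ppp1r15b, a regulatory subunit gene of the phosphatase that acts on eIF2 alpha (-1.70). In the Ppp1r15b peak the PL libraries stood at 11.9 and 11.7 CPM and the LL libraries at 4.99 and 2.41 CPM, while PP was at 10.5 and 12.0 CPM. There the first LPS libraries were at the level of saline, and LL lay below both.

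**Figure D2:**
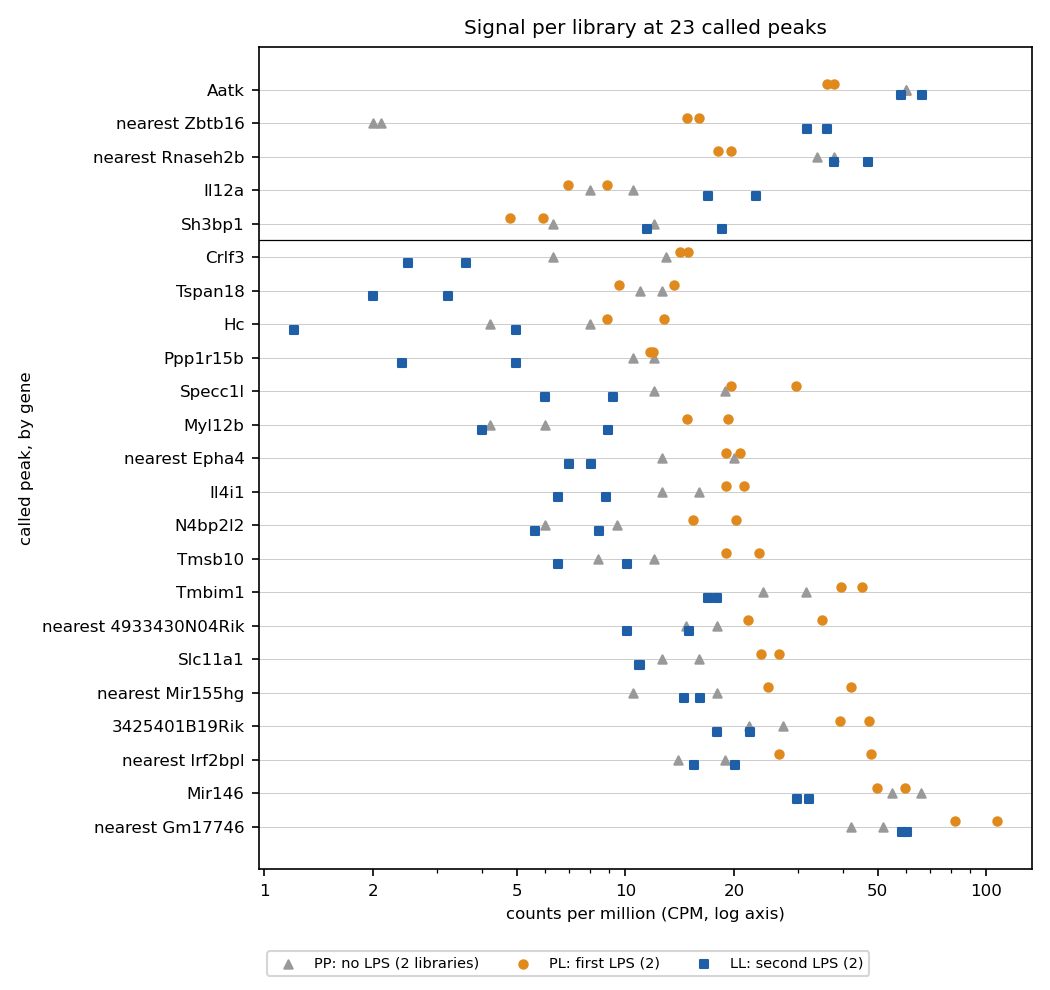
Each row is 1 of 23 called peaks and each point 1 library, with CPM on a log axis. Triangles are PP (no LPS), circles PL (first LPS) and squares LL (second LPS). Above the line are the 5 peaks higher in LL and below it 18 lower ones; at many of the lower peaks, such as Slc11a1 and that nearest to Mir155hg, the squares lie among or below the triangles.

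Among the 5 peaks that rose, the clearest gradation was in intron 2 of Zbtb16, which encodes the BTB zinc finger transcription factor PLZF. The peak, at chr9:48744940-48745377 and 90568 bp downstream of the start site, measured 2.10 and 2.00 CPM in PP, 14.8 and 16 CPM in PL and 31.9 and 36.2 CPM in LL. No library of one group overlapped those of another, and the order was saline, first LPS, second LPS. The log2 fold change of LL over PL was 1.15 (SE 0.23, edgeR adjusted p = 0.0147). Of the 5 peaks assigned to Zbtb16, 4 had a positive log2 fold change and 3 of those an unadjusted p under 0.05.

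Il12a encodes the p35 subunit of interleukin 12. A peak 23944 bp upstream of it (chr3:68666421-68666700) measured 8.89 and 6.92 CPM in PL and 23.0 and 16.9 CPM in LL. The PP libraries, at 10.5 and 7.98 CPM, overlapped PL. LL over PL gave a log2 fold change of 1.31 (SE 0.30, edgeR adjusted p = 0.0369). Of the 7 peaks of the Il12a locus 6 had a positive log2 fold change, and the summed locus measured 99.5 and 125 CPM in PL and 142 and 128 CPM in LL, which was not called (log2 fold change 0.26, adjusted p = 0.65).

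At Aatk, the gene of apoptosis-associated tyrosine kinase, the called peak covered the promoter (chr11:120041613-120042364). It measured 37.9 and 36.2 CPM in PL, 57.9 and 66.4 CPM in LL and 60.0 and 59.9 CPM in PP. The second LPS libraries were thus at the level of saline and the first LPS libraries below it, and the log2 fold change of LL over PL was 0.75 (SE 0.17, edgeR adjusted p = 0.0369). All 5 peaks of the locus had a positive log2 fold change. A distal region on chromosome 14 (chr14:62001339-62001994) was similar, with 19.6 and 18.1 CPM in PL, 37.9 and 47.1 CPM in LL and 37.9 and 33.9 CPM in PP (log2 fold change 1.19, SE 0.22, adjusted p = 0.00222). The Sh3bp1 promoter peak measured 5.93 and 4.79 CPM in PL and 11.5 and 18.5 CPM in LL, on 9 to 46 counts per library. The PP libraries, at 6.31 and 12 CPM, overlapped LL. The log2 fold change of LL over PL was 1.51 (SE 0.35, edgeR adjusted p = 0.0415). That of LBL over PBL was 0.16, with overlapping libraries.

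The promoter of Aatk is printed because it is the RefSeq window that lies inside a called peak, and that of Mertk because its locus was called (below) and its promoter peak lies in the same direction. Each runs 5′ to 3′ on the gene's strand from 250 bases before to 50 after the RefSeq start (GRCm38.p6); that of Aatk is chr11:120041732-120042031 on the minus strand and that of Mertk chr2:128698665-128698964 on the plus strand. Capitals mark matches on either strand to the letters searched: TGANTCA for AP-1, GAGGAAG for PU.1, GAAANNGAA for IRF, GGGNNTTCC for NF-kB, TTGCNNAA for C/EBP and GGGCGG for KLF/SP.
Aatk: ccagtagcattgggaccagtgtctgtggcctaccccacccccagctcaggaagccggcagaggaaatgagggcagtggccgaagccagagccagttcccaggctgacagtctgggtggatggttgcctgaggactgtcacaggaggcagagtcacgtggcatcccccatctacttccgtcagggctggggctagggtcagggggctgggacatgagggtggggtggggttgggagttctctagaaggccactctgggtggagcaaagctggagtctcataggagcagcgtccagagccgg
Mertk: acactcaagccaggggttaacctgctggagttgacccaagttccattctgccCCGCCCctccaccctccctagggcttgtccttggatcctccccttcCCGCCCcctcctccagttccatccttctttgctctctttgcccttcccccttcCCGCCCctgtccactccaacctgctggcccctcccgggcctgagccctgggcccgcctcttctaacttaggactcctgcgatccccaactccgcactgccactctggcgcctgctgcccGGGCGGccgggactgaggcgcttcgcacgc
The Mertk window holds the KLF/SP letters and none of the others, and the Aatk window holds none of the 6. Of 32841 RefSeq promoter windows of 300 bases, 35.7% hold the KLF/SP letters, 7.81% those of AP-1, 13.6% those of PU.1, 8.56% those of IRF, 5.82% those of NF-kB and 10.8% those of C/EBP. A match describes the letters in this window and not a bound site.

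By position, 5 of the 24 called peaks were promoter peaks (20.8%, 95% Clopper-Pearson interval 7.13% to 42.2%), 7 intronic, 11 distal intergenic and 1 exonic. Over all tested peaks 36.8% were promoter peaks and 24.4% distal intergenic. At an unadjusted p under 0.05 the promoter share was 22.9% among the 1535 lower peaks (20.8% to 25.1%) and 33.3% among the 1398 higher ones (30.8% to 35.8%). The intervals cover counting error only. PL 3_4 had the lowest share of counts in promoter peaks of all libraries, and its part in this share was not tested. Peaks within 50 kb of a called lower peak showed no shared direction: 48 of 100 had a negative log2 fold change. Around the called higher peaks 23 of 28 neighbours had a positive one, beside 51.2% of all tested peaks. Of those 23, 3 had an unadjusted p under 0.05, all of them beside the Zbtb16 peak.

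The same question can be put to the arm in which microglia were depleted and had repopulated, which shares no library with LL and PL and in which both groups were sorted on XDP, though each on its own day. LBL against PBL called 713 peaks (1.9%), 365 higher (0.973%) and 348 lower (0.928%). The split moved with the scaling: it was 420 higher and 206 lower with TMM over promoter peaks, and 222 and 422 with TMM over the other peaks. DESeq2 called 17. Of the 19 peaks lower in LL, 17 were also lower in LBL, 13 of them called, and the median log2 fold change of the 19 was -1.10 there against -1.33 in LL. Of the 5 peaks higher in LL all 5 had a positive log2 fold change in LBL, none was called, 2 had an unadjusted p under 0.05, and the median was 0.29 against 1.19. The 13 shared calls are 54.2% of the calls of LL against PL and 1.82% of those of LBL against PBL, and they include Tmbim1, Slc11a1, Il4i1, Mir146, Crlf3, Hc, Tmsb10, 3425401B19Rik and the regions nearest to Mir155hg, Irf2bpl and Epha4. Over all 37516 tested peaks 55.8% had the same sign in both arms, and Pearson's r was 0.24 and Spearman's coefficient 0.20 across peaks, which are not independent replicates.

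At 3 of the shared calls the depleted arm gave the following levels. The Tmbim1 peak measured 49.9, 49.0 and 60.9 CPM in PBL and 23.4 and 26.4 CPM in LBL, a log2 fold change of -1.10 (edgeR adjusted p = 3.66e-05). The Slc11a1 peak stood at 26.7, 36.1 and 35.2 CPM in PBL and 11.7 and 11.7 CPM in LBL (-1.51, adjusted p = 1.12e-05). The Mir146 peak was at 54.1, 60.1 and 68.9 CPM in PBL and 35.1 and 44.7 CPM in LBL (-0.62, adjusted p = 0.0157). In all 3 the LBL libraries lay below every PBL library. The Zbtb16 peak was at 19.7, 13.0 and 13.9 CPM in PBL and 28.6 and 19.8 CPM in LBL, without overlap but not called (0.66, adjusted p = 0.12). The Aatk promoter peak, at 47.8, 48.1 and 42.2 CPM in PBL and 48.1 and 50.8 CPM in LBL, overlapped (0.12, adjusted p = 0.81), and the Ppp1r15b and Myl12b peaks had positive log2 fold changes of 0.08 and 0.29. The difference between the arms at Myl12b was -1.74 (unadjusted p = 7.82e-05, adjusted p = 0.226) and at Ppp1r15b -1.78 (unadjusted p = 0.00114, adjusted p = 0.462).

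Read the other way, the 348 peaks called lower in LBL had a median log2 fold change of -0.43 in LL against PL. Of these 306 (87.9%) were negative, 148 (42.5%) with an unadjusted p under 0.05, beside 4.09% of all tested peaks. The 365 called higher had a median of 0.22. Of these 286 (78.4%) were positive, 61 (16.7%) with an unadjusted p under 0.05, beside 3.73% of all tested peaks. The difference between the arms was tested in the same model and called 0 peaks (0%), with 2596 at an unadjusted p under 0.05 and a smallest adjusted p of 0.167. DESeq2 and limma-trend also called 0, with 496 and 1899 peaks at an unadjusted p under 0.05. The larger number of calls in the depleted arm is therefore not shown to be a difference in effect, and PBL had 1 library more. Of its libraries, PBL 3_4 and PBL 4_5 share an animal number in their names but were fitted as separate pools. With PL 1_2 left out the difference called 71 peaks.

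**Figure D3:**
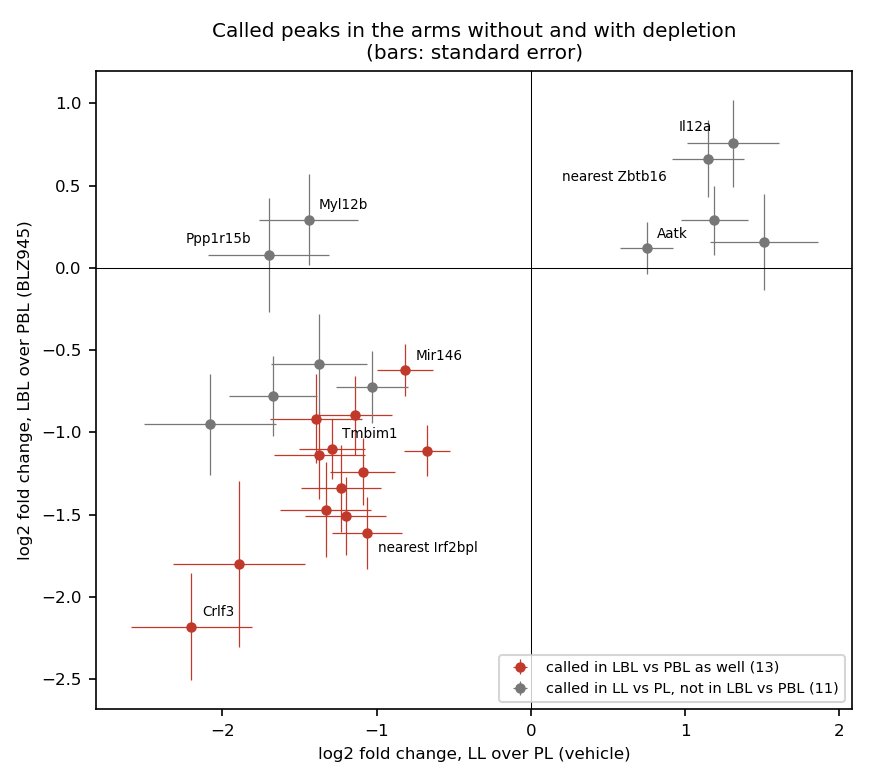
The 24 called peaks by their log2 fold change of LL over PL (x axis) and of LBL over PBL (y axis), with bars for the standard error. The 13 peaks in red were called in both arms and all lie in the lower left; the 5 higher peaks lie on the right, above 0 in both arms.

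To describe genes as a whole, the peaks whose nearest start site lay within 50 kb were summed per gene, and 13734 loci were tested. Of these 6 were called (0.0437%), Mertk and Gm15569 higher (0.0146%) and Gem, Il4i1, Phlda1 and 3425401B19Rik lower (0.0291%), all with edgeR adjusted p between 0.0444 and 0.0463. DESeq2 and limma-trend called 0 of them, with 257 and 730 loci at an unadjusted p under 0.05.

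Mertk, the receptor tyrosine kinase by which microglia take up apoptotic cells, had a locus signal of 273 and 264 CPM in PP, 156 and 156 CPM in PL and 217 and 217 CPM in LL. The second LPS libraries lay between the first LPS and the saline libraries, with no overlap. The log2 fold change of LL over PL was 0.47 (SE 0.10, edgeR adjusted p = 0.0444). All 7 of its peaks had a positive log2 fold change, 5 with an unadjusted p under 0.05, beside 51.2% and 3.73% of all tested peaks. The locus is their sum, so their signs are no further support for the call. The promoter peak in which the printed sequence lies had 0.47 (edgeR adjusted p = 0.263). A peak in an exon (chr2:128782275-128782585) had 1.68 (adjusted p = 0.134), on 3.56 and 2.13 CPM in PL, and 0.14 in the depleted arm. Another promoter peak (chr2:128770945-128771650) had 0.12, with overlapping LL and PL libraries. In the depleted arm the locus was called as well, at 0.48 (adjusted p = 0.0018). The call was lost in 11 of 18 alternatives, among them leaving out PL 3_4, LL 1_2 or LL 3_4, while the log2 fold change stayed between 0.35 and 0.59.

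Phlda1, a pleckstrin homology-like domain gene induced by many growth and stress signals, and Gem, a small GTPase gene induced by activation, were the opposite. The Phlda1 locus measured 116 and 105 CPM in PP, 168 and 183 CPM in PL and 120 and 130 CPM in LL, and fell by 0.49 (SE 0.10, edgeR adjusted p = 0.0444). The Gem locus measured 36.9 and 27.3 CPM in PP, 49.1 and 70.3 CPM in PL and 30.9 and 33.0 CPM in LL, and fell by 0.90 (SE 0.18, adjusted p = 0.0444). The LL libraries overlapped PP at Gem and lay just above it at Phlda1. All 4 Phlda1 peaks and both Gem peaks had negative log2 fold changes, which the locus sums already hold. Both loci were also called lower in the depleted arm, at -0.50 and -0.78. The locus of the noncoding gene Gm15569 measured 111 and 98.9 CPM in PL and 148 and 153 CPM in LL (0.53, SE 0.11, adjusted p = 0.0444), and in the depleted arm 0.09. The peaks summed there at chr15:86182636-86183215 and chr15:86181816-86182348 lie in intron 1 of another gene, Cerk.

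Homeostatic microglia genes, the receptors, regulators and surface proteins that mark resting microglia, had 30 tested loci, of which 1 was called higher (Mertk) and none lower. Of the 30, 27 had a positive log2 fold change, with a median of 0.11, where 50% of all loci were positive with a median of 0.00015. At an unadjusted p under 0.05, 12 (40%) were higher and none lower, beside 3.27% and 3.68% of all loci. Gpr34, a lysophosphatidylserine receptor, measured 25.2 and 28.6 CPM in PL and 36.8 and 44.1 CPM in LL (0.60, SE 0.21, edgeR adjusted p = 0.465). Its other peaks lie in introns of the gene Cask, and the peak inside Gpr34 had a log2 fold change of 0.36 (edgeR adjusted p = 0.812). Sall1, the transcription factor that maintains microglial identity, stood at 110 and 88.1 CPM in PL and 137 and 117 CPM in LL, with 168 and 139 CPM in PP (0.35, adjusted p = 0.465). Siglech measured 69.3 and 75.0 CPM in PL and 79.6 and 106 CPM in LL (0.37, adjusted p = 0.503), and Tmem119 74.3 and 66.7 CPM in PL and 76.9 and 89.9 CPM in LL (0.25, adjusted p = 0.787). At these 4 the LL libraries lay above the PL libraries (groups did not overlap at 31.9% of all loci), while P2ry12, the ADP receptor of resting microglia, overlapped, at 242 and 331 CPM in PL and 303 and 319 CPM in LL. The lowest log2 fold change of the list was -0.085. Over the alternatives that of Gpr84 ran from -0.14 to -0.02 and that of Olfml3 from -0.16 to 0.25.

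In the depleted arm 4 homeostatic loci were called higher and none lower, beside 0.706% and 0.502% of all loci, and the median was 0.16. The called ones include Mertk and Siglech (0.52, edgeR adjusted p = 0.0356). Leaving out PL 3_4 gave a median of 0.19 with 27 of 30 positive and no call, and leaving out PL 1_2 a median of 0.07 with 21 positive and 3 called higher. Fewer cells of a type and less signal per cell cannot be told apart in such pooled samples, and the 11 tested microglia markers whose sum was higher in LL are all in this list.

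**Figure D4:**
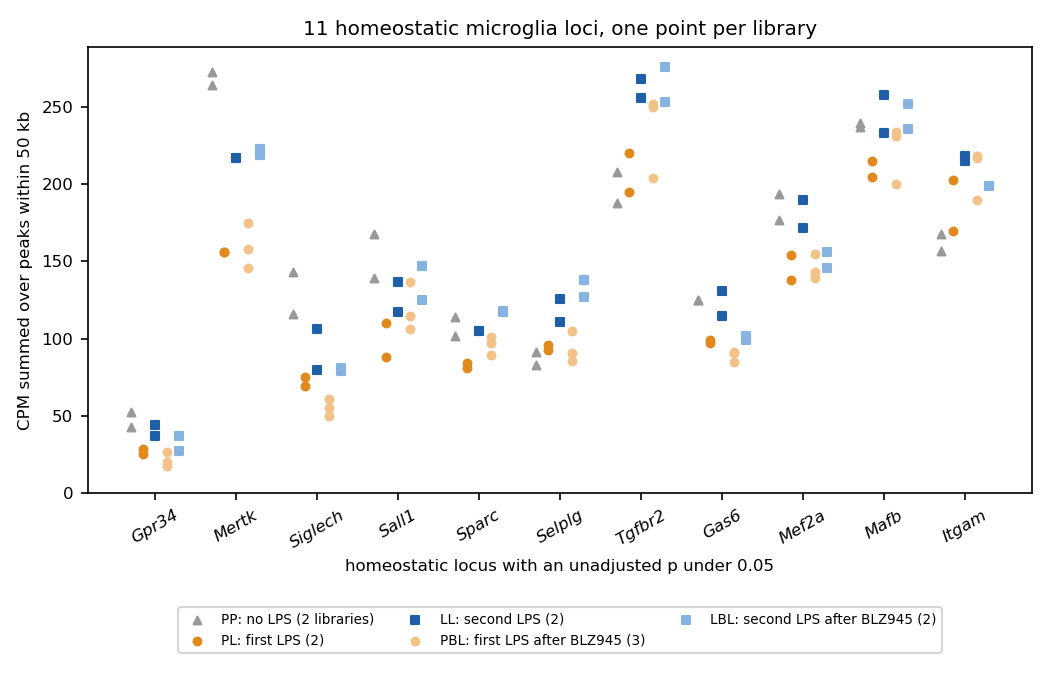
The plot shows 11 of the 12 homeostatic loci with an unadjusted p under 0.05 in LL against PL, chosen by that p, with 1 point per library and the CPM summed over peaks within 50 kb on the y axis. Pale circles and squares are PBL and LBL of the depleted arm. Dark squares (LL) lie above dark circles (PL) at each of the 11; for Mertk, Sall1 and Siglech the triangles of PP are higher still.

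Interferon-stimulated genes had 28 tested loci with no call. Of these 22 had a negative log2 fold change, and the median was -0.16. With an unadjusted p under 0.05 there were 4 lower (14.3%) and 2 higher (7.14%), beside 3.68% and 3.27% of all loci. Ifih1, the cytosolic RNA sensor MDA5, measured 58.2 and 63.1 CPM in PP, 99.5 and 113 CPM in PL and 69.3 and 72.3 CPM in LL, and missed the threshold (log2 fold change -0.59, SE 0.13, edgeR adjusted p = 0.0565). The chemokine gene Cxcl10 measured 33.6 and 31.5 CPM in PP, 65.5 and 80.4 CPM in PL and 56.3 and 46.7 CPM in LL (-0.52, adjusted p = 0.341). At both loci LL lay between saline and first LPS without overlap (LL and PL did not overlap at 31.9% of all loci). In the depleted arm the Ifih1 locus had a log2 fold change of -0.16, and LBL overlapped PBL. Irf9 went the other way, with 54.2 and 48.8 CPM in PL and 72.6 and 64.3 CPM in LL (0.40, adjusted p = 0.544), and Ifit3 and Irf7 overlapped. Leaving out PL 3_4 moved the median of the list to -0.08.

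Inflammatory cytokines and NF-kB targets had 30 tested loci, none called; 19 were negative and 11 positive, with a median of -0.07. At 2 of the genes best known from the LPS response the groups overlapped: Il1b measured 177 and 194 CPM in PL and 193 and 177 CPM in LL, and Il6 84.4 and 121 CPM against 103 and 93.4 CPM. Tnf, at 86.9 and 75.6 CPM in PL and 67.7 and 73.6 CPM in LL, did not overlap but was far from called (log2 fold change -0.20, edgeR adjusted p = 0.827). Also lower without overlap were Birc3, an inhibitor of apoptosis, at 111 and 145 CPM in PL and 98.6 and 88.1 CPM in LL (-0.46, adjusted p = 0.177), and Il12b, the p40 subunit that pairs with p35, at 106 and 132 CPM against 95.3 and 88.1 CPM (-0.38, adjusted p = 0.372). The 2 subunit genes of interleukin 12 thus had opposite signs, and neither locus was called. With PL 3_4 left out, 17 of the 30 were positive and the median was 0.02. Without LL 3_4, 15 were positive and 15 negative. In the depleted arm 5 loci of this list were called lower and none higher, beside 0.502% and 0.706% of all loci. The median there was -0.22.

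Map3k8, which encodes TPL2, a kinase between Toll-like receptors and ERK, measured 109 and 111 CPM in PP, 307 and 361 CPM in PL and 341 and 336 CPM in LL. PL stood above PP (log2 fold change 1.60, edgeR adjusted p = 3.18e-17), and the log2 fold change of LL over PL was 0.02 (SE 0.09, adjusted p = 0.983). Tlr4, the LPS receptor, measured 123 and 175 CPM in PL and 147 and 136 CPM in LL, which overlap. Nfkbia, which encodes the NF-kB inhibitor IkB alpha, measured 233 and 262 CPM in PL and 267 and 280 CPM in LL (0.14, adjusted p = 0.808). The Toll-like receptor pathway list had 26 tested loci, none called, and a median of 0.02 that turned negative with TMM over promoter peaks, with trended scaling and without PL 1_2. Its locus with the smallest p was Traf3, an adaptor between TRIF and interferon induction, at 106 and 113 CPM in PL and 76.9 and 83.3 CPM in LL (-0.45, adjusted p = 0.177).

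Negative regulators of LPS signalling had 27 tested loci, none called, 13 positive and 14 negative. At an unadjusted p under 0.05, 6 (22.2%) were higher and 2 (7.41%) lower, beside 3.27% and 3.68% of all loci. Il10ra, the interleukin 10 receptor chain, measured 93.2 and 85.8 CPM in PL and 126 and 115 CPM in LL (log2 fold change 0.42, edgeR adjusted p = 0.227), and Socs3, which restrains cytokine receptor signals, 404 and 368 CPM against 467 and 443 CPM (0.24, adjusted p = 0.484). Il1rn, the interleukin 1 receptor antagonist, measured 34.0 and 47.0 CPM in PL and 29.8 and 16.7 CPM in LL (-0.84, SE 0.22, edgeR adjusted p = 0.131). In the depleted arm the Il1rn locus had -0.16, and LBL overlapped PBL. The phosphatase gene Dusp2 measured 103 and 103 CPM in PL and 84.5 and 73.1 CPM in LL (-0.40, edgeR adjusted p = 0.311). Tnfaip3, which encodes the deubiquitinase A20, overlapped, with 309 and 423 CPM in PL and 332 and 350 CPM in LL.

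None of the other lists had a called locus. The median log2 fold change was 0.03 for 24 immediate early and AP-1 genes, 0.07 for 17 genes of the glucocorticoid receptor and its targets, 0.06 for 25 glycolysis, HIF and mTOR genes, 0.09 for 25 histone and DNA methylation modifiers, 0.004 for 26 disease-associated or primed microglia genes, -0.08 for 18 antigen presentation genes and -0.02 for 19 proliferation genes. The sign of the median changed with the setting for 4 of these lists: the immediate early list (trended scaling, thinning), the disease-associated list (both TMM alternatives, without PL 1_2 and in both narrower windows), the histone and DNA methylation list (thinning) and the proliferation list (without LL 3_4, peaks within 10 kb). Single loci stood out from their lists without passing the test. The metallothionein gene Mt2 measured 73.1 and 71.5 CPM in PL, 48.8 and 47.6 CPM in LL and 35.8 and 48.3 CPM in PP (log2 fold change -0.59, edgeR adjusted p = 0.131), and was called in the depleted arm (-0.88, adjusted p = 0.000219). Fkbp5, a glucocorticoid-induced chaperone gene, measured 480 and 404 CPM in PL and 505 and 527 CPM in LL (0.23, adjusted p = 0.544). Cd74, the MHC class II invariant chain, was at 166 and 172 CPM in PL and 132 and 152 CPM in LL (-0.24, adjusted p = 0.619), and Ep300, a histone acetyltransferase gene, at 121 and 96.5 CPM against 141 and 136 CPM (0.35, adjusted p = 0.358).

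**Figure D5:**
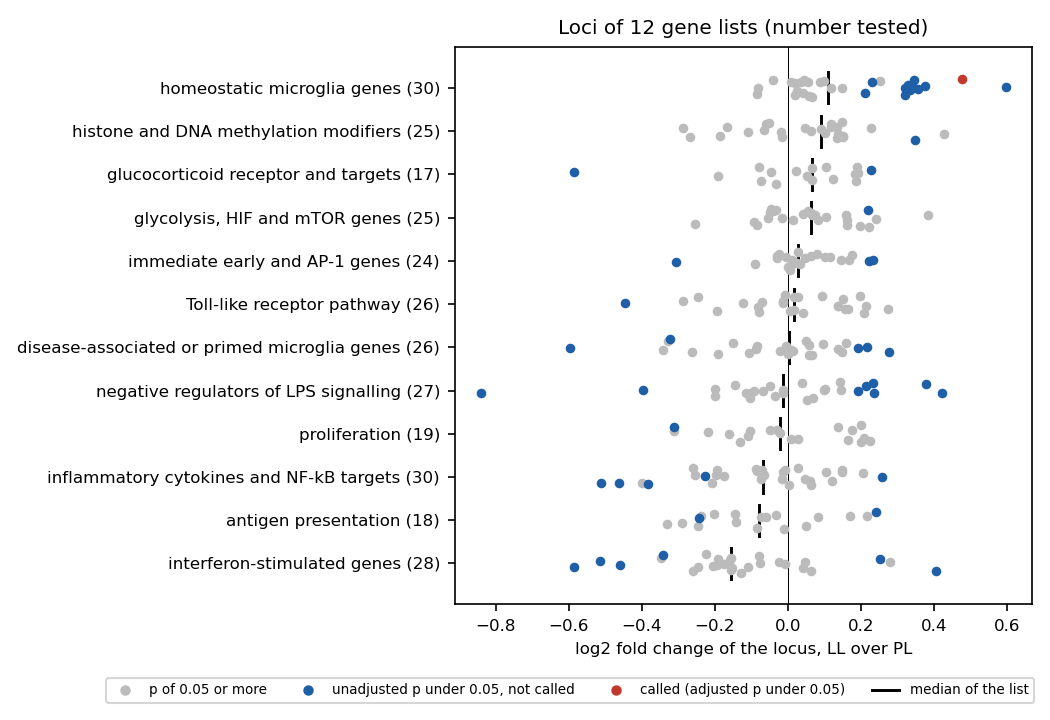
Each point is 1 tested locus of 12 gene lists, placed by its log2 fold change of LL over PL; black ticks are list medians, blue points have an unadjusted p under 0.05 and the red point is the called Mertk locus. The homeostatic list sits farthest to the right, with a median of 0.11, and the interferon-stimulated list farthest to the left, at -0.16.

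Marker lists of other cells the sort could hold had no called locus either. Summed over loci, the markers of macrophages from the brain borders or the bone marrow measured 595 and 743 CPM in PL and 700 and 689 CPM in LL, with 10 of 12 tested loci positive and a median of 0.15, which turned negative without PL 1_2 and with peaks within 1 kb only; 4 of the 16 listed genes, among them Lyve1 and Pf4, had no tested peak. Monocyte markers were at 380 and 426 CPM in PL and 409 and 398 CPM in LL, neutrophil markers at 193 and 224 CPM against 217 and 215 CPM, and lymphocyte markers at 385 and 436 CPM against 418 and 405 CPM. In these 4 lists the LL libraries lay within the range of the PL libraries. No tested peak was found for 5 of 10 monocyte, 8 of 14 neutrophil and 8 of 14 lymphocyte markers, nor for 4 of 13 oligodendrocyte, 7 of 10 astrocyte, 9 of 13 neuron and 3 of 13 endothelial and mural markers. Oligodendrocyte markers measured 498 and 534 CPM in PL and 490 and 521 CPM in LL, astrocyte markers 304 and 360 CPM against 337 and 371 CPM, neuron markers 72.4 and 70.3 CPM against 69.3 and 65.2 CPM, and endothelial and mural markers 546 and 672 CPM against 558 and 585 CPM. The part of other cells in the results was not tested.

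The calls depended on single libraries. Without PL 3_4 the fit called 6 peaks in all, 4 of them among the 24; without LL 1_2 it called 5, all among the 24, and without LL 3_4 it called 8, of which 2 were among the 24. Without PL 1_2 it called 304, 101 higher and 203 lower, with 23 of the 24 among them. None of the 24 peaks was called in all 4 of these fits. All 24 kept their direction in each, which follows from the lack of overlap between their LL and PL libraries. It is no further support for the calls. Tmbim1, Crlf3, 3425401B19Rik and Tspan18 were the peaks of the 24 called without PL 3_4. A fit to the 4 LL and PL libraries alone called 3 of the 24, at Tmbim1, Specc1l and Crlf3, all lower. Thinning the counts to equal totals left 0, with 2000 peaks at an unadjusted p under 0.05.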

How the data were processed

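The authors deposited, for each peak and library of this ATAC-seq series of sorted brain microglia, an expected count (an estimated count in steps of 0.5, not normalized) over a peak set common to all 13 libraries. The submitters' processing notes list HOMER 4.9.1, ChIPseeker 1.38, deepTools 3.3.0, MACS2 2.1.1, Bowtie2 2.2.6, cutadapt 1.9.1, bedtools 2.26, Picard 1.126 and SAMtools 1.7, with GRCm38 (mm10). The tool that counted, and any shift of reads for the enzyme, were not given in the sources used here. Promoter peaks, by the deposited annotation, lie within 1 kb of a start site.

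Values ending in 0.5 were rounded to the even neighbour, peaks filtered with filterByExpr (minimum count 10, 1104 peaks removed) and fitted in edgeR 4.0.16 (R 4.3.3) with TMM scaling, 6 group means over all 13 libraries, which share 1 estimate of the spread, and robust quasi-likelihood F tests, two-sided. Benjamini-Hochberg adjustment ran over all peaks or loci, and an adjusted p under 0.05 was called. CPM are scaled by TMM. The SE is the log2 fold change divided by the square root of F. Locus sums were taken before rounding. Alternatives were DESeq2 1.42.0, limma-trend (limma 3.58.1, prior count 2), other scalings, filters, windows and roundings, thinning and left-out libraries. PBL 3_4 and PBL 4_5 share an animal number in their names. The model took them as separate pools, so the spread of PBL, and with it the shared spread, may be understated.

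Named genes were drawn from up to 12 called peaks per direction by smallest p, at most 1 per gene. At these the LL and PL libraries do not overlap. Further sources were 2 loci per list and direction by smallest p, the called loci, and a fixed set of loci. Of the fixed set Apoe had no tested peak. Not every locus so picked is described, and Irf8, Tab2, Mapk14 and Traf6 are among those left out. Other called peaks, and counts over the peaks of single genes, were added after their values were seen. A called peak and a homeostatic locus are counted but not reported here. Members and lists were chosen with earlier results of these data known. Depth is the total rounded count in peaks. The p-values rest on a spread between pools that all 6 groups share. The PL pair, from separate days, differed more than any other pair, so the shared spread may understate that of PL.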

Additional observations from a re-analysis of the deposited data

How the results depend on the processing

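With 2 pools a group, the number of calls depended on the method. LL against PL, with 24 peaks and 6 loci called, gave 15 peaks and 0 loci with TMM over promoter peaks as with TMM over the other peaks, 0 and 0 with DESeq2, 4 and 0 with limma-trend, 3 and 0 in the compared groups alone, and 0 and 0 after thinning to equal totals. Loci limited to peaks within 1 kb gave 2. At an unadjusted p under 0.05 the alternatives with 0 called loci had 257 to 868. LBL against PBL, with 713 peaks, gave 17 with DESeq2, 263 with limma-trend and 122 after thinning, and the difference between the arms gave 1 after thinning. Same-numbered libraries of LL and PL did not deviate together (correlation 0.0523). The LL pair differed by little more than counting noise (chi-square per degree of freedom 1.03). The correlation therefore cannot decide whether the numbers pair libraries. The replicate block gave 49 peaks and 13 loci for LL against PL, 472 peaks for LBL against PBL and 0 for the difference. Leaving out 1 library gave 5 to 304 peaks and 0 to 243 loci for LL against PL, 88 to 598 peaks for LBL against PBL and 0 to 71 for the difference; the highest values for LL against PL and for the difference came without PL 1_2. Where a group kept 1 library, that library was assumed to vary like the other groups. The promoter share of the called peaks, 20.8%, ran from 0% (without LL 3_4) to 40% (without LL 1_2); DESeq2 and thinning called no peak and gave no share. Size factors, trended scaling, both filters and rounding up, the last chosen after seeing the data, kept the count of LL against PL peaks between 24 and 28. No called peak changed direction in any alternative in which it was tested, which the lack of overlap between its LL and PL libraries largely fixed. Counts of 3 to 201 per library limit the precision at the called peaks.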
